A study of Rattus norvegicus with 16 samples.

Results

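The respiratory chain assembly factors are proteins that help to build complexes I to V of the inner mitochondrial membrane but do not stay in the finished enzymes. A list of 48 such genes was looked up by symbol among the 17055 gene symbols counted in rat liver, and 34 were found. Another 14 symbols were not found (Ndufaf2, Foxred1, Sdhaf1, Sdhaf3, Sdhaf4, Uqcc1, Uqcc2, Uqcc3, Cox10, Cox14, Sco2, Coa6, Coa7 and Pet117). Surf1, which acts in the maturation of the Cox1 subunit of cytochrome c oxidase, was listed with 0 reads in all 16 libraries, and 3 counts, the limit that a count of 0 allows, come to between 0.0601 and 0.211 CPM (reads scaled to the size of the library) per library. The annotation used for counting is not known here and could give such a 0, so it is not read as a lack of Surf1 RNA in liver. The other 33 members passed the limit on low counts in every comparison, 12 of them acting on complex I, 1 on complex II, 3 on complex III, 13 on complex IV, 3 on complex V, and Oxa1l on the insertion of proteins of several complexes.

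The respiratory chain passes electrons from NADH and succinate to oxygen through complexes I to IV, and complex V uses the proton gradient they make to produce ATP. Each complex is put together stepwise from many subunits, and assembly factors hold intermediates in place, insert hemes, copper, flavin and iron-sulfur clusters, or place subunits in the membrane. Hepatocytes are rich in mitochondria, and loss of an assembly factor is known to leave its complex short of finished enzyme.

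Liver RNA came from 48 male Sprague-Dawley rats aged 10 weeks, pooled 3 rats to a library, so that the 4 groups of 12 rats gave 4 libraries each. Rats of the Isoflurane + sepsis group (libraries 1 to 4) underwent cecal ligation and puncture under isoflurane, and those of the Isoflurane control group (libraries 5 to 8) had the cecum brought out and put back under the same anesthetic. The Propofol + sepsis group (libraries 9 to 12) and the Propofol control group (libraries 13 to 16) had the same procedures under propofol after induction with ketamine and xylazine. Livers were taken 8 h after the abdomen was opened. The anesthetic, the induction drug and the series of library identifiers changed together, so they cannot be told apart in any comparison between isoflurane and propofol. RefSeq lists pseudogenes of Ecsit, Ndufaf4, Ndufaf7, Cox11, Lyrm7, Tmem126a, Coa5 and Atpaf2, and how reads shared with them were counted is not known here, so the levels of these members are less certain. The spread given here is between pools of rats and not between single rats. The tests weigh a difference between groups against the spread between pools, estimated with the help of all genes tested.

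Reads counted on genes ranged from 14199422 to 49937173 per library (median 19735458). All 8 hepatocyte markers examined, albumin among them, were present in the liver libraries. Their sum lay between 116000 and 129000 CPM in the Isoflurane + sepsis group against 139000 to 149000 CPM in its control group, and between 95200 and 107000 CPM in the Propofol + sepsis group against 104000 to 116000 CPM in its control group. The sum of 10 neutrophil and monocyte markers was higher with sepsis, at 1300 to 2180 CPM against 159 to 212 CPM under isoflurane and 1210 to 3340 CPM against 405 to 666 CPM under propofol, and 1 of the 10, Ly6c, was at 0 in every group. The other members of the list are S100a8, S100a9, Itgam, Csf3r, Fcnb, Mpo, Ptprc, Lcn2 and Il1b. Which cells of the liver made this RNA was not tested, so the sum is not read as a count of leukocytes. In bulk tissue, fewer cells of a type and less RNA per cell cannot be told apart. The part of these markers in the results on assembly factors was not tested.

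Sepsis lowered a larger share of the assembly factors than of all genes under both anesthetics, and no member was called higher. Compared to the Isoflurane control group, 20 of 33 members (60.6%) were lower in the Isoflurane + sepsis group, where 24.4% of all genes tested were lower. A gene was called where the adjusted p of edgeR's quasi-likelihood test, Benjamini-Hochberg adjusted over all genes tested, was below 0.05. Under propofol 15 of 33 members (45.5%) were lower with sepsis, against 21.7% of all genes. The median log2 fold change of the members was -0.44 under isoflurane and -0.23 under propofol, beside medians of 0.01 and 0 over all genes. None of the members was called higher by edgeR or DESeq2 in either anesthetic, and 0 rose at an unadjusted p below 0.05, whereas 25.7% and 20.4% of all genes were called higher under isoflurane and propofol.

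The calls under isoflurane and propofol overlapped in part. A total of 12 members were lower under both (Ndufaf1, Ndufaf3, Acad9, Ecsit, Nubpl and Tmem126a of complex I, Sdhaf2 of complex II, Ttc19 of complex III, Cox15, Cox20 and Coa4 of complex IV and Atpaf1 of complex V). Another 8 were called under isoflurane only and 3 (Ndufaf4, Bcs1l and Oxa1l) under propofol only, and 10 in neither, but a call in only 1 of them does not show a difference. In 21 members every Isoflurane + sepsis library lay below every Isoflurane control library, which held for 24.4% of all genes. The same held for 17 members under propofol, against 21.1% of all genes.

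**Figure D1:**
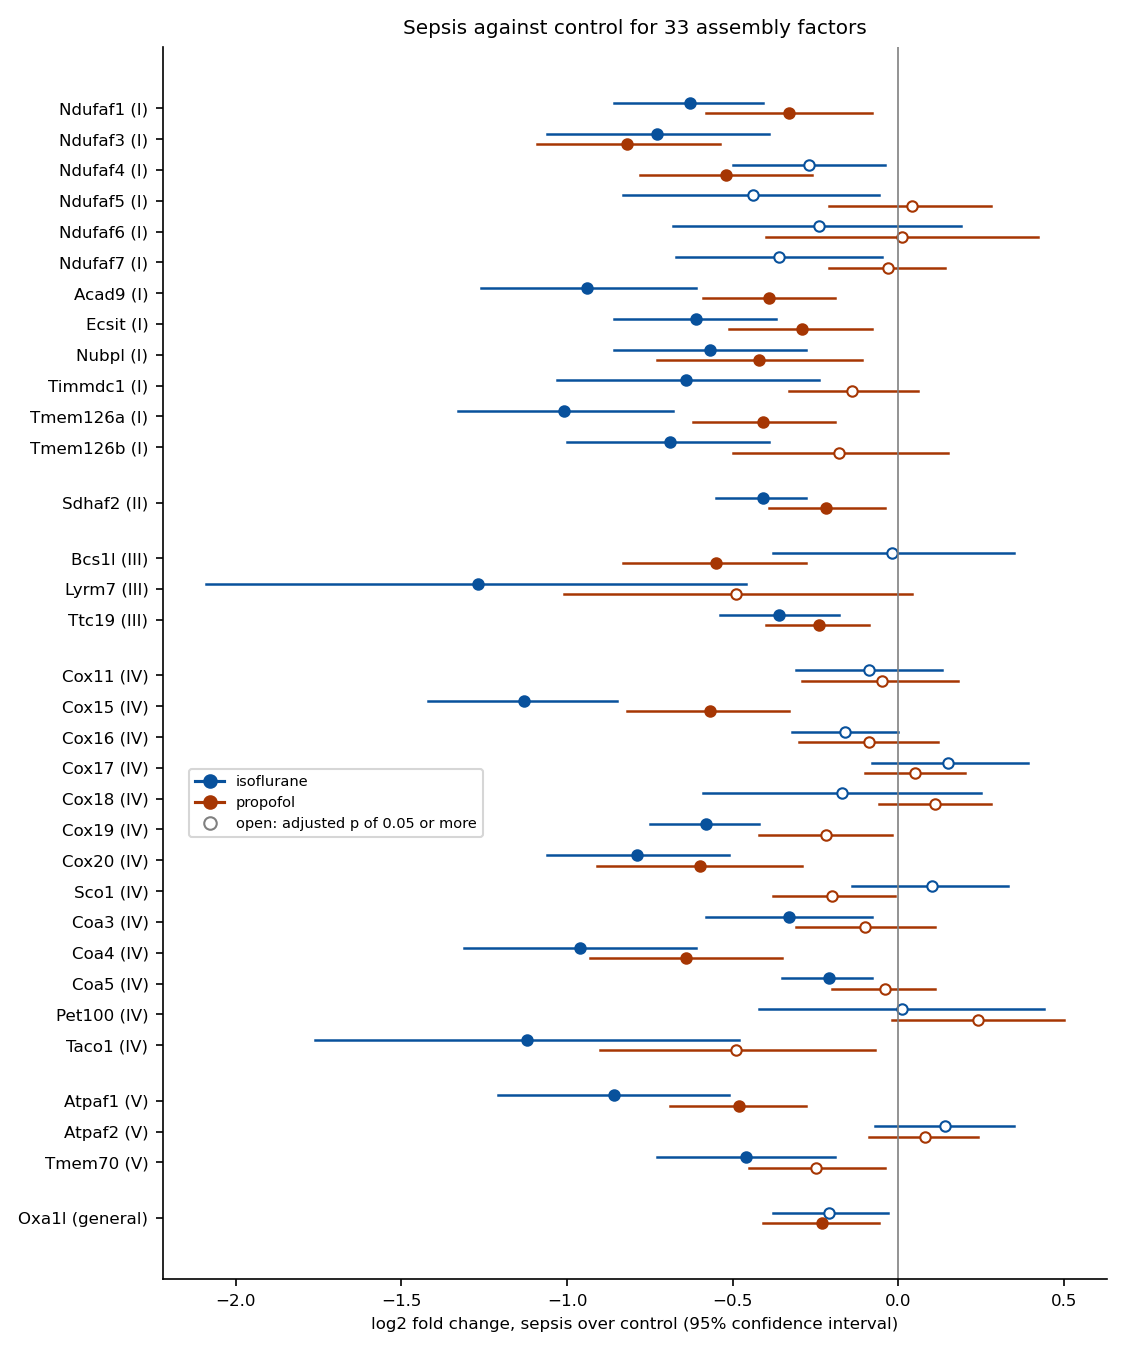
Log2 fold change of sepsis over control for the 33 members tested, grouped by complex, with 95% confidence intervals (isoflurane in blue, propofol in orange, 4 libraries per group). Filled points have an adjusted p below 0.05 (edgeR) and all of them lie left of 0, 20 for isoflurane and 15 for propofol.

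The RefSeq promoter windows of the rat genome (build GRCr8, 250 bases before to 50 after the gene start) were searched for the sites of transcription factors known to act on nuclear genes of the respiratory chain. Windows were matched by symbol for 30 of the 33 members. The letters CCGGAAG, a core of sites bound by GABP and other ETS factors, stood on either strand in 13 of the 30 windows (43.3%), against 17.7% of the 8163 windows of genes tested under isoflurane and 8.75% of all 33469 windows. Of those 13 members, 9 (69.2%) were called lower under isoflurane and 8 (61.5%) under propofol, beside 9 (52.9%) and 7 (41.2%) of the 17 members whose windows lack it, and the difference was not tested. The NRF1 core GCGCATGC stood in 5 windows (16.7%, against 5.12% of the genes tested and 2.47% of all windows), those of Ndufaf4, Ndufaf5, Ttc19, Cox18 and Oxa1l, of which 1 was called under isoflurane and 3 under propofol, beside 17 and 12 of the 25 members without it. In 4 of those 5 the match was the palindrome GCGCATGCGC, so that matches on both strands overlap. The CREB site TGACGTCA stood in the windows of Nubpl and Ttc19 (6.67%, against 3.09% of the genes tested and 1.83% of all windows), and the ESRRA site TGACCTTG in 0 of 30 (0.809% of the genes tested and 1.52% of all windows). A match is a description of the letters and not a bound site.

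The 180 bases before the gene start are shown 5' to 3' for 5 members with the ETS core that fell under isoflurane and for 2 with the NRF1 core that fell under propofol, with the matches in capitals. These were picked by match and call together, so they show no link between match and fall. Cox11, Cox16, Sco1 and Pet100 hold the ETS core and were not called under isoflurane. Ndufaf5 and Cox18 hold the NRF1 core and were not called under propofol.
Cox15: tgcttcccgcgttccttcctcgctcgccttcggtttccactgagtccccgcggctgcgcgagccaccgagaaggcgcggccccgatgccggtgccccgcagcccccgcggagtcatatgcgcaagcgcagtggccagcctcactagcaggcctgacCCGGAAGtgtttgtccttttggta
Tmem126a: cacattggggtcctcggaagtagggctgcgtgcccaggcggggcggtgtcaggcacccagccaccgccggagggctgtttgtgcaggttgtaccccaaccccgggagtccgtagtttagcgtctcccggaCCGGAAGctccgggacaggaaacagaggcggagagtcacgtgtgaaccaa
Acad9: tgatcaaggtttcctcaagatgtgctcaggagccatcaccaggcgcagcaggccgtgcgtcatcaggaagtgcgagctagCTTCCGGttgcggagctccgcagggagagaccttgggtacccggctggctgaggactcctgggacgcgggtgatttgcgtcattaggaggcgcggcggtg
Coa4: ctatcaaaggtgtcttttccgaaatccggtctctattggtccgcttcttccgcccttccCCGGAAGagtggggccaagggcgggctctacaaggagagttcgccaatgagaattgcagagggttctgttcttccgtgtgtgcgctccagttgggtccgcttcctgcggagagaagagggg
Timmdc1: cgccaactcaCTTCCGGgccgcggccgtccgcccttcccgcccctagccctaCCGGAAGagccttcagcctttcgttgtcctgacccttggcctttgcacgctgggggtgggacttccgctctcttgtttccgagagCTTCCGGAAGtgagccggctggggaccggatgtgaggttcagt
Ndufaf4: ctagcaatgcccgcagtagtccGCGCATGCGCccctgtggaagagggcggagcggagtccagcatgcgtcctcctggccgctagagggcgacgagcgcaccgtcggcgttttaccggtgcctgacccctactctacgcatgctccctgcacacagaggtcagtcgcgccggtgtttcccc
Oxa1l: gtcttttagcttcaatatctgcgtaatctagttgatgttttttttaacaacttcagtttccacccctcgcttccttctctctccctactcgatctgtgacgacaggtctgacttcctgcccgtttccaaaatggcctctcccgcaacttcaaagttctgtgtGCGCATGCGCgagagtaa
They lie at chr1:252571472-252571651 (minus strand) for Cox15, chr1:153843180-153843359 (minus strand) for Tmem126a, chr2:120871149-120871328 (plus strand) for Acad9, chr1:164294162-164294341 (plus strand) for Coa4, chr11:75734374-75734553 (plus strand) for Timmdc1, chr5:43401615-43401794 (plus strand) for Ndufaf4 and chr15:31783545-31783724 (plus strand) for Oxa1l. Cox15, Tmem126a, Acad9 and Coa4 hold the ETS core once in the stretch shown. Timmdc1 holds it 4 times, among them an overlapping pair that reads CTTCCGGAAG. The window of Cox15 overlaps that of Cutc on the other strand, and 12 of the 30 windows (40%) overlap the window of a gene on the opposite strand, against 14.4% of the genes tested. Median GC content was 58.8% for the members and 60.7% for the genes tested.

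Complex I assembly factors had the most calls in number, though not the highest share. Of 12 members tested, 8 (66.7%) were lower with sepsis under isoflurane and 7 (58.3%) under propofol, against 24.4% and 21.7% of all genes. Their medians were -0.62 and -0.31 on the log2 scale. The 3 members of complex III gave 66.7% under each anesthetic, and the 3 of complex V gave 66.7% and 33.3%. The factors of the assembly complex for the membrane arm, Ndufaf1, Acad9, Ecsit, Tmem126b and the associated Timmdc1, all fell under isoflurane, and Ndufaf1, Acad9 and Ecsit also fell under propofol.

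Acad9, a member of the acyl-CoA dehydrogenase family that serves in this assembly complex, measured 23.6, 21.7, 15.2 and 14.9 CPM in the Isoflurane + sepsis libraries and 34.8, 37, 36.6 and 35.9 CPM in the Isoflurane control libraries. Libraries 3 and 4 were lowest, and the groups did not overlap. Acad9 fell to 0.523 times its control level (log2 fold change -0.94, SE 0.146, adjusted p = 0.00103). In the Propofol + sepsis libraries it measured 28.4, 22.5, 29.2 and 29.3 CPM, and in the Propofol control libraries 34.6, 37.8, 35.8 and 34.1 CPM. Library 10 was lowest, the other 3 were close together, and all 4 lay below the controls (log2 fold change -0.39, SE 0.0901, adjusted p = 0.0072).

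Ndufaf1, a chaperone of the same intermediate, measured 8.63, 7.35, 6.78 and 7.67 CPM with sepsis and 10.8, 11.2, 12.4 and 12.8 CPM in control under isoflurane. No library of either group reached the other (log2 fold change -0.63, SE 0.1, adjusted p = 0.00114). With propofol, Ndufaf1 measured 12, 9.23, 12.7 and 12.1 CPM with sepsis and 15.9, 15, 14 and 12.9 CPM in control. The highest sepsis value, 12.7, and the lowest control value, 12.9, were nearly equal (log2 fold change -0.33, SE 0.112, adjusted p = 0.0377), and the call was lost without library 9, 10, 12, 13, 14 or 15 (adjusted p between 0.0555 and 0.0952).

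Ecsit, an adaptor protein of signalling pathways that also serves in the assembly complex, measured 20.9, 23.1, 20.3 and 16.2 CPM with sepsis and 30.6, 30, 32.7 and 30.2 CPM in control under isoflurane. The control libraries were close together and all above the sepsis libraries (log2 fold change -0.61, SE 0.107, adjusted p = 0.00182). Under propofol the values were 27.3, 23.6, 32.5 and 30.7 CPM with sepsis and 33.9, 36.5, 34.2 and 34.5 CPM in control. The groups did not overlap, although library 11 came close to the controls (log2 fold change -0.29, SE 0.0959, adjusted p = 0.034). Leaving out library 9, 13, 14, 15 or 16 ended this call (adjusted p between 0.0562 and 0.0877).

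Timmdc1, a membrane protein of the same assembly step, measured 26, 21.8, 14.2 and 15.2 CPM in the Isoflurane + sepsis libraries and 31.8, 30.5, 30.1 and 27.9 CPM in control. Libraries 3 and 4 were again lowest (log2 fold change -0.64, SE 0.174, adjusted p = 0.0146). Under propofol the values of 30.6, 25, 31.7 and 30.6 CPM with sepsis overlapped those of 30.5, 34.4, 30.8 and 33.4 CPM in control, and the log2 difference of -0.14 (95% confidence interval -0.33 to 0.06) did not pass the test.

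Tmem126a and Tmem126b are related membrane proteins of complex I assembly, the former needed for a distal piece of the membrane arm. Tmem126a measured 13.1, 11.3, 8.75 and 7.91 CPM in the Isoflurane + sepsis libraries and 20.5, 21.7, 20.9 and 19.8 CPM in control, and fell to 0.497 times control (log2 fold change -1.01, SE 0.144, adjusted p = 7.02e-04). With propofol it measured 15, 11.9, 16.2 and 15.7 CPM in the sepsis libraries and 19.8, 19.4, 18.8 and 19.6 CPM in control, to 0.754 times control (log2 fold change -0.41, SE 0.0969, adjusted p = 0.00815). All sepsis libraries of both anesthetics lay below all control libraries of the same anesthetic.

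Tmem126b measured 4.54, 4.06, 4.04 and 3.14 CPM with sepsis and 5.45, 6.68, 6.78 and 6.71 CPM in control under isoflurane (log2 fold change -0.69, SE 0.137, adjusted p = 0.0033). Library 5 was the lowest control but still lay above all sepsis libraries. Under propofol the ranges of 3.96 to 4.97 CPM with sepsis and 4.31 to 5.71 CPM in control overlapped (log2 difference -0.18, 95% confidence interval -0.5 to 0.15).

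Ndufaf3 and Ndufaf4 work as a pair on the early module that binds ubiquinone. Ndufaf3 measured 7.78, 10.1, 10.2 and 6.4 CPM in the Isoflurane + sepsis libraries and 14.6, 14.2, 13.6 and 14.6 CPM in control (log2 fold change -0.73, SE 0.147, adjusted p = 0.00375). In the propofol libraries it measured 11.1, 9.28, 9.03 and 11.6 CPM with sepsis and 15.1, 19.6, 20.7 and 16.7 CPM in control (log2 fold change -0.82, SE 0.123, adjusted p = 6.98e-04). Both contrasts were free of overlap, and the fall under propofol had the lowest log2 fold change of any member there.

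Its partner Ndufaf4 was called under propofol only. It measured 33.8, 29.3, 38.3 and 36.1 CPM in the Propofol + sepsis libraries and 46.6, 50.5, 58.7 and 40.5 CPM in control, without overlap (log2 fold change -0.52, SE 0.118, adjusted p = 0.00638). In the Isoflurane + sepsis libraries it measured 25.2, 31.9, 24.9 and 23.1 CPM and in control 31.9, 31.7, 30 and 33.2 CPM, so that library 2 lay within the controls (log2 difference -0.27, adjusted p = 0.0541). Under isoflurane Ndufaf4 was called lower in 4 of 14 alternatives, so its call there depends on the method. These were the fit without library 2 (log2 fold change -0.38, adjusted p = 0.00562), library totals (0.0281), DESeq2 (0.0438) and a mean of at least 1 CPM (0.0488).

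Nubpl, which delivers iron-sulfur clusters to complex I, measured 3.89, 3.41, 2.9 and 3.2 CPM with sepsis and 5.5, 5.3, 4.37 and 4.85 CPM in control under isoflurane (log2 fold change -0.57, SE 0.129, adjusted p = 0.00606). With propofol, Nubpl measured 4.63, 3.57, 3.37 and 3.86 CPM with sepsis and 4.7, 5.59, 5.28 and 4.99 CPM in control (log2 fold change -0.42, SE 0.138, adjusted p = 0.0329). The groups were apart in both, by a small margin under propofol, where the call was lost without library 11, 12, 14, 15 or 16 (adjusted p between 0.0623 and 0.0873).

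Ndufaf5, Ndufaf6 and Ndufaf7 did not pass the test with sepsis. Ndufaf7, an arginine methyltransferase, measured 6.98, 6.06, 4.45 and 5.98 CPM with sepsis and 8.32, 7.67, 6.64 and 7.44 CPM in control under isoflurane (log2 difference -0.36, adjusted p = 0.0563). Under propofol it measured 9.26, 8.84, 9.24 and 9.88 CPM with sepsis and 8.82, 9.55, 9.66 and 9.89 CPM in control (log2 difference -0.03, 95% confidence interval -0.21 to 0.14). Ndufaf5, which hydroxylates an arginine of Ndufs7, gave log2 differences of -0.44 (adjusted p = 0.0567) and 0.04, and Ndufaf6 of -0.24 and 0.01. Leaving out single libraries brought Ndufaf5, Ndufaf6 and Ndufaf7 below 0.05 under isoflurane, at adjusted p = 0.0235 without library 4, 0.046 without library 2 and 0.0238 without library 1. Ndufaf7 also passed under isoflurane with library totals (adjusted p = 0.0358) and with all 16 libraries in 1 fit (0.0157).

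For complex II, Sdhaf2 was the only listed factor found under its symbol. Sdhaf2, which is needed to attach FAD to the catalytic subunit, measured 29.2, 29, 26.8 and 28.6 CPM in the Isoflurane + sepsis libraries and 38.8, 38, 37.3 and 37.3 CPM in control. These libraries were tightly grouped and apart (log2 fold change -0.41, SE 0.059, adjusted p = 7.05e-04). For the propofol groups Sdhaf2 measured 33.9, 29.6, 36.1 and 37.7 CPM with sepsis and 38.7, 40, 40.6 and 39.8 CPM in control (log2 fold change -0.22, SE 0.0776, adjusted p = 0.046). The propofol call was lost in 10 of 14 alternatives. These were the fits without any one library other than library 12 (adjusted p between 0.0672 and 0.0967), RLE size factors (0.054), DESeq2 (0.0579) and no minimum count (0.0843).

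Of the 3 complex III factors tested, 2 (66.7%) were lower under each anesthetic, against 24.4% and 21.7% of all genes. The medians of the 3 were -0.36 under isoflurane and -0.49 under propofol. All 3 handle the Rieske iron-sulfur protein Uqcrfs1. Lyrm7, which holds this protein in the matrix before insertion, measured 1.85, 1.48, 0.518 and 0.544 CPM in the Isoflurane + sepsis libraries and 2.96, 2.52, 2.93 and 2.31 CPM in control. It had the lowest log2 fold change of the members (-1.27, SE 0.361, adjusted p = 0.0169) and also the widest confidence interval, -2.09 to -0.46. Its counts were low, and libraries 3 and 4 lay far below libraries 1 and 2. In the propofol libraries it measured 3.84, 1.66, 2.94 and 3.13 CPM with sepsis and 3.22, 4.37, 4.14 and 4.37 CPM in control, with overlap (log2 difference -0.49, adjusted p = 0.122).

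Bcs1l, the ATPase that carries the Rieske protein through the membrane, was called under propofol only. In the propofol libraries it measured 17.3, 13.1, 18.2 and 18 CPM with sepsis and 23.7, 27.9, 24.7 and 21.1 CPM in control, all sepsis values below all controls (log2 fold change -0.55, SE 0.122, adjusted p = 0.00533). In the isoflurane libraries the sepsis values of 13.8, 17.3, 9.94 and 10.6 CPM fell on both sides of the control values of 12, 12.7, 13.6 and 13.6 CPM (log2 difference -0.02, 95% confidence interval -0.38 to 0.35). The Isoflurane control libraries were themselves at the level of the Propofol + sepsis libraries or below. The isoflurane change minus the propofol change, 0.53 on the log2 scale (95% confidence interval 0.07 to 0.99), had an adjusted p of 0.158.

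Ttc19, which clears fragments of the Rieske protein, measured 23.4, 23.6, 21.1 and 19.3 CPM with sepsis and 28.6, 29.1, 26.8 and 28 CPM in control under isoflurane (log2 fold change -0.36, SE 0.081, adjusted p = 0.00604). With propofol, Ttc19 measured 24.8, 22.7, 21.1 and 22.7 CPM with sepsis and 26.2, 26.1, 27 and 28.2 CPM in control (log2 fold change -0.24, SE 0.068, adjusted p = 0.0171). Groups were apart in both, and without library 11 or 16 the propofol result had an adjusted p of 0.0583 or 0.0554.

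Of the 13 complex IV factors tested, 7 (53.8%) were lower with sepsis under isoflurane and 3 (23.1%) under propofol, the latter close to the 21.7% of all genes. The medians of the 13 log2 fold changes were -0.21 and -0.1. Under isoflurane the lowest log2 fold change among them was that of Cox15, which makes heme A from heme O. Cox15 measured 4.69, 4.45, 4.04 and 3.5 CPM in the Isoflurane + sepsis libraries and 8.13, 8.76, 10.6 and 9.25 CPM in control. It fell to 0.455 times control (log2 fold change -1.13, SE 0.127) with the smallest adjusted p of all members, 2.3e-04. With propofol, Cox15 measured 7.96, 6.01, 8.18 and 6.81 CPM with sepsis and 10.9, 9.9, 11 and 10.9 CPM in control, to 0.673 times control (log2 fold change -0.57, SE 0.11, adjusted p = 0.00265). The highest sepsis library stayed below the lowest control library in both anesthetics.

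Of the 4 factors of copper delivery tested, Cox19 was the only one called with sepsis, and it was called under isoflurane. Cox19, a small protein of the intermembrane space that takes part in the copper relay, measured 17.6, 16.3, 16.7 and 15.8 CPM with sepsis and 27, 24, 24.6 and 24.3 CPM in control under isoflurane (log2 fold change -0.58, SE 0.0735, adjusted p = 3.87e-04). In the propofol libraries Cox19 measured 21.2, 18.4, 19.2 and 21.5 CPM with sepsis and 25.5, 20, 24.6 and 23.4 CPM in control, and library 14 lay among the sepsis values (log2 difference -0.22, adjusted p = 0.0734). Without library 14 the log2 fold change was -0.29 and the adjusted p 0.0262. Cox19 also passed under propofol with library totals (adjusted p = 0.0379) and with all 16 libraries in 1 fit (0.0476).

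Sco1, which passes copper to the Cox2 subunit, was at 9.18, 7.41, 8.34 and 8.34 CPM with sepsis and 6.96, 8.02, 7.66 and 8.52 CPM in control under isoflurane, with overlap (log2 difference 0.1, 95% confidence interval -0.14 to 0.33). Under propofol it was at 9.21, 8.5, 8.55 and 8.91 CPM with sepsis and 9.33, 10.8, 10.4 and 9.6 CPM in control, apart but without passing the test (log2 difference -0.2, adjusted p = 0.0782, or 0.0286 with library totals). Cox17, the copper chaperone at the start of the relay, gave log2 differences of 0.15 and 0.05, and Cox11, which places copper in the Cox1 subunit, of -0.09 and -0.05. Cox17 was called higher under isoflurane when library 1 was left out (log2 fold change 0.23, adjusted p = 0.0486).

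Among factors of the mitochondrially made subunits, Cox20, a chaperone of Cox2, measured 5.74, 4.38, 4.61 and 4.17 CPM with sepsis and 7.52, 7.77, 8.97 and 8.44 CPM in control under isoflurane (log2 fold change -0.79, SE 0.123, adjusted p = 0.00107). Under propofol it measured 6.66, 4.79, 7.11 and 7.42 CPM with sepsis and 8.82, 9.78, 10.1 and 10.7 CPM in control (log2 fold change -0.6, SE 0.139, adjusted p = 0.00668). Cox20 was apart in both anesthetics, whereas Cox18, which inserts Cox2 in the membrane, and Cox16, which acts on Cox2 as well, did not pass the test in either, with log2 differences between -0.17 and 0.11. Without library 1 Cox16 was called lower under isoflurane (log2 fold change -0.2, adjusted p = 0.0365).

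Taco1, an activator of Cox1 translation, measured 2.44, 0.902, 1.29 and 2.11 CPM with sepsis and 2.73, 4.41, 4.04 and 3.67 CPM in control under isoflurane (log2 fold change -1.12, SE 0.284, adjusted p = 0.0105). These were low levels with a wide spread, and library 1 of the sepsis group came close to library 5 of the controls. Under propofol the values of 3.61, 2.44, 3.58 and 2.83 CPM with sepsis overlapped 3.47, 5.36, 4.24 and 4.22 CPM in control (log2 difference -0.49, adjusted p = 0.0589, or 0.0451 without library 13 and 0.0372 with library totals). Coa3, which also acts on newly made Cox1, was called under isoflurane (log2 fold change -0.33, adjusted p = 0.036) but not without library 2, 5, 6, 7 or 8, where the adjusted p was between 0.0626 and 0.0819.

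Coa4, a small protein of the intermembrane space, measured 5.14, 4.7, 2.95 and 4.11 CPM with sepsis and 8.13, 7.72, 8.78 and 8.21 CPM in control under isoflurane (log2 fold change -0.96, SE 0.154, adjusted p = 0.00119). Under propofol it measured 7.34, 5.86, 8.01 and 8.39 CPM with sepsis and 9.65, 12.2, 11.9 and 12.3 CPM in control (log2 fold change -0.64, SE 0.128, adjusted p = 0.0033). Library 13 was the lowest of its controls and still above every sepsis library. Coa5, another small factor, fell under isoflurane by 0.21 on the log2 scale (adjusted p = 0.0159, or 0.0548 without library 8) and had a log2 difference of -0.04 under propofol. Pet100 ranged from 14.5 to 27 CPM in the Isoflurane + sepsis libraries, on both sides of the 18.7 to 21 CPM of its controls, and gave log2 differences of 0.01 and 0.24. Without library 10 Pet100 was called higher under propofol (log2 fold change 0.33, adjusted p = 0.0209).

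Of the 3 complex V factors, 2 (66.7%) were lower with sepsis under isoflurane and 1 (33.3%) under propofol, against 24.4% and 21.7% of all genes. With 3 factors these shares are coarse. The medians were -0.46 and -0.25. Atpaf1, which binds the beta subunit, measured 20.9, 19.8, 13.3 and 12.9 CPM in the Isoflurane + sepsis libraries and 30.7, 31.9, 29.8 and 29.4 CPM in control (log2 fold change -0.86, SE 0.155, adjusted p = 0.0021). In the propofol libraries it measured 20.9, 16.9, 21.4 and 21.2 CPM with sepsis and 27.8, 29.8, 29.2 and 25.2 CPM in control (log2 fold change -0.48, SE 0.0922, adjusted p = 0.00258). Both contrasts were free of overlap. Libraries 3, 4 and 10 were the lowest of their groups.

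Atpaf2, which binds the alpha subunit, measured 16.3, 15.9, 12.6 and 13.5 CPM with sepsis and 12.9, 13, 13.2 and 13.9 CPM in control under isoflurane, and 16.7, 17, 16.6 and 17.5 CPM with sepsis and 15.8, 15.3, 15 and 17.9 CPM in control under propofol. Its log2 differences of 0.14 (95% confidence interval -0.07 to 0.35) and 0.08 (-0.09 to 0.24) did not pass the test. Tmem70, which helps to form the membrane ring of complex V, fell under isoflurane (log2 fold change -0.46, SE 0.119, adjusted p = 0.0112) and had a log2 difference of -0.25 under propofol (adjusted p = 0.0548, or 0.0478 without library 10).

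Oxa1l, the insertase of the inner membrane, measured 36.8, 36.3, 43 and 44.2 CPM in the Propofol + sepsis libraries and 45.7, 48.6, 45.9 and 47.6 CPM in control (log2 fold change -0.23, SE 0.0775, adjusted p = 0.035). In the isoflurane libraries it measured 39.5, 37.3, 43 and 43.8 CPM with sepsis and 47.3, 50.6, 45.2 and 46.2 CPM in control (log2 difference -0.21, adjusted p = 0.0518). The differences were almost equal in size and the groups apart in both anesthetics. The call under propofol was lost without library 9, 10, 13, 14, 15 or 16 (adjusted p between 0.0526 and 0.0958), and in the fit that dropped the minimum count (0.0614). Under isoflurane Oxa1l passed in 7 of 14 alternatives, with adjusted p from 0.0141 (library totals) to 0.135 over the 14, among them DESeq2 (0.0417), all 16 libraries in 1 fit (0.0271) and the fits without library 3 or 4 (0.0355 and 0.0359).

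**Figure D2:**
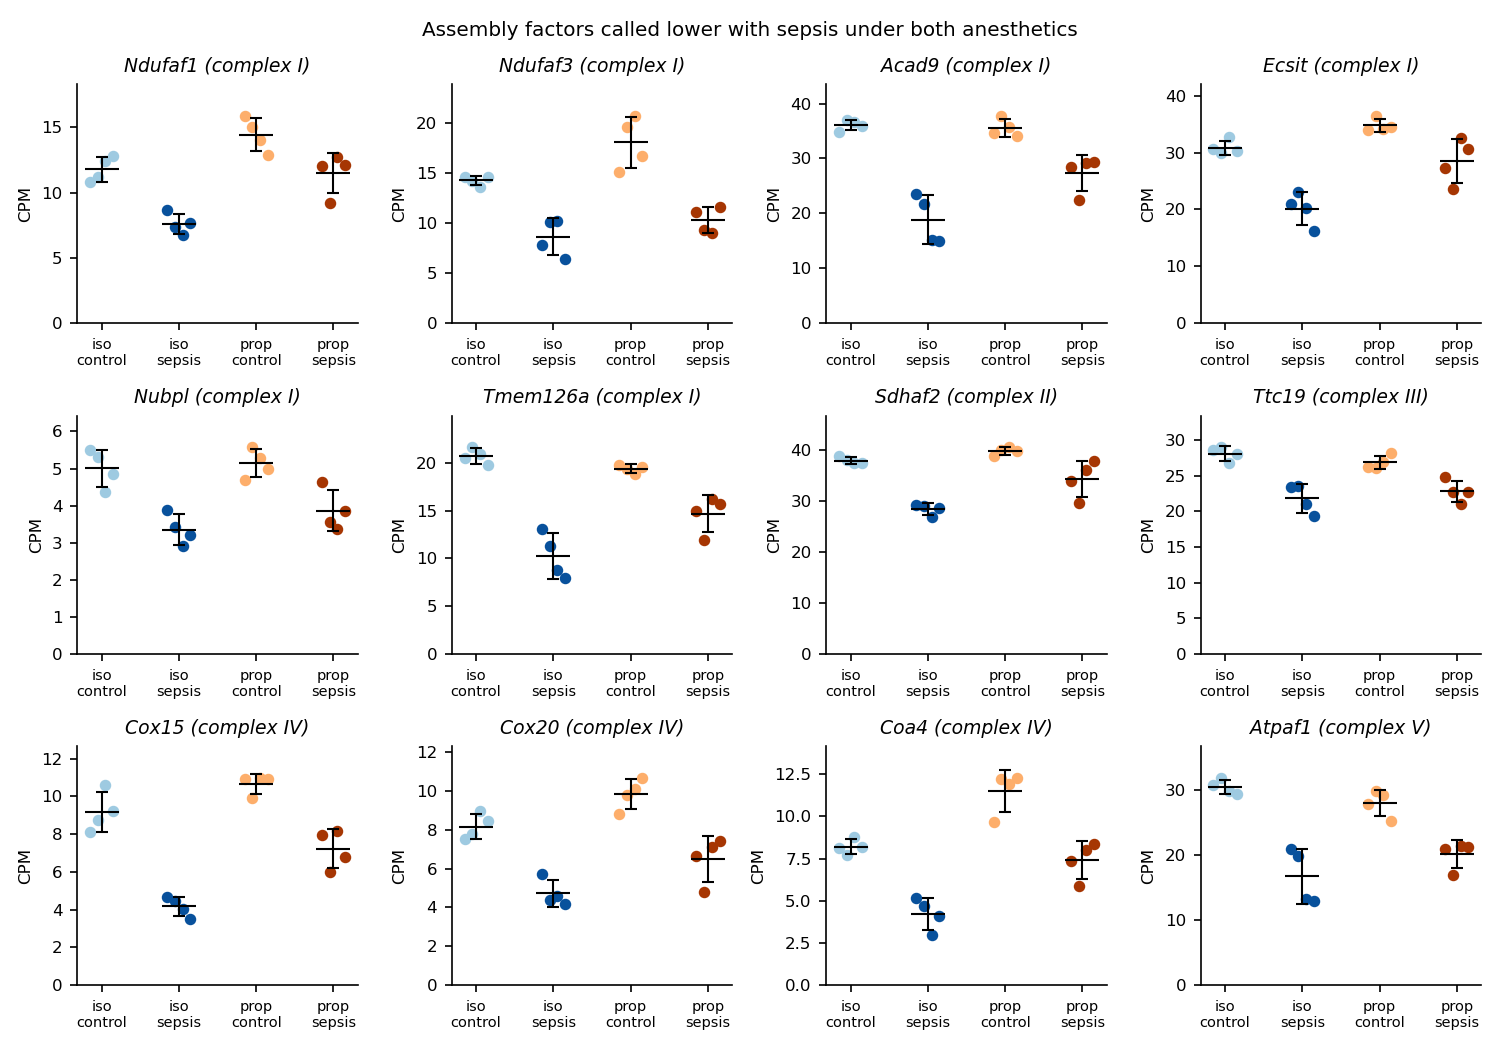
CPM per library (points) with the mean and SD of 4 libraries (bars) for the 12 members called lower with sepsis under both anesthetics. In each panel the sepsis points of an anesthetic lie below all of its control points. Each axis starts at 0 and has its own scale.

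Of the 14 symbols that were not found, 5 stood in the files under an older symbol that RefSeq lists as a synonym, and these are not counted above. Uqcc1 (as Uqcc) and Uqcc2 (as Mnf1), which serve the making of cytochrome b for complex III, were lower with sepsis under isoflurane, with log2 fold changes of -0.43 (adjusted p = 0.00231) and -0.35 (adjusted p = 0.013), and gave log2 differences of -0.23 and -0.02 under propofol. Coa7 (as Selrc1) of complex IV fell under isoflurane (log2 fold change -0.35, adjusted p = 0.0326). Sdhaf3 (as Acn9) of complex II had a log2 difference of 0.1 under isoflurane and was called lower under propofol (log2 fold change -0.59, adjusted p = 0.0487). Its propofol levels were low and overlapped, at 1.6 to 2.37 CPM with sepsis and 2.06 to 3.52 CPM in control. Sdhaf1 (as RGD1562079) was listed with 0 reads in every library.

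The libraries of the sepsis groups did not fall evenly. Taking each member against the mean of the controls of its anesthetic, on log2 of CPM plus 0.5, the median over the 33 members was -0.321, -0.337, -0.56 and -0.596 in Isoflurane + sepsis libraries 1 to 4, and -0.137, -0.421, -0.173 and -0.161 in Propofol + sepsis libraries 9 to 12. The 8 control libraries lay between -0.0365 and 0.0503. Libraries 3 and 4 were the lowest of the isoflurane group, library 10 was the lowest of the propofol group, and all 8 sepsis libraries lay below all 8 control libraries. The sum of neutrophil and monocyte markers was 1470, 1300, 1470 and 2180 CPM in libraries 1 to 4 and 2020, 1210, 3340 and 2800 CPM in libraries 9 to 12, so library 10 held the lowest sum of its group. Reads listed as no_feature, which were assigned to no gene, made up 23.1%, 24%, 25.4% and 24.5% of reads in libraries 1 to 4 and 22.4%, 23.3%, 22.2% and 22.3% in libraries 9 to 12, against 22.4% to 23% in the Isoflurane control group and 21.6% to 22.1% in the Propofol control group. Where in the genome these reads lie is not known here, because the counting program and annotation are not named. The libraries with the lowest members, 3 and 4 under isoflurane and 10 under propofol, thus held the highest shares of no_feature reads in their groups. The summed lymphocyte markers were at 2.1, 1.48, 3.06 and 3.93 CPM in libraries 1 to 4 and 1.36, 2.05, 1.44 and 1.31 CPM in libraries 9 to 12, highest in the same libraries. These sums are low, and 1 gene of the list passed the limit on low counts. The summed endothelial markers were at 179, 170, 164 and 143 CPM and at 219, 204, 224 and 213 CPM, lowest in the same libraries. In the hepatocyte, Kupffer cell, stellate and cholangiocyte lists, libraries 3 and 4 were neither both highest nor both lowest of their group. The hepatocyte sums were 125000, 116000, 122000 and 129000 CPM in libraries 1 to 4. In libraries 9 to 12 they were 105000, 107000, 95200 and 102000 CPM. The part of these lists in the levels of the members was not tested. With any 1 library left out, between 18 and 22 members were lower under isoflurane and between 10 and 13 under propofol, and 18 of the 20 isoflurane calls and 9 of the 15 propofol calls (Ndufaf3, Ndufaf4, Acad9, Tmem126a, Bcs1l, Cox15, Cox20, Coa4 and Atpaf1) held in each of the 8 fits.

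**Figure D3:**
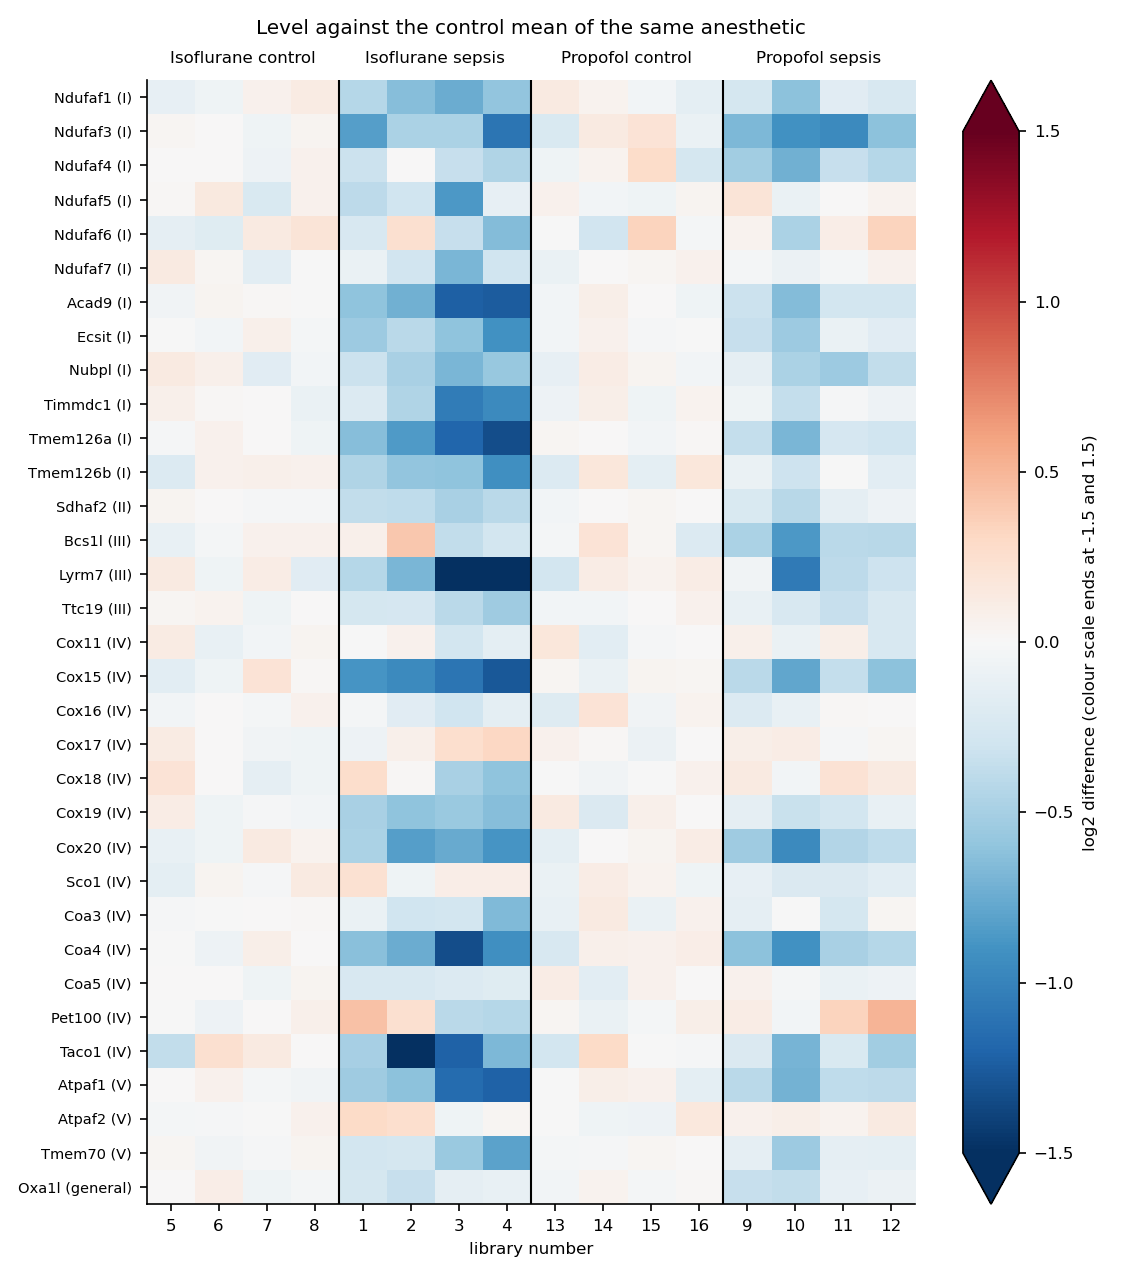
Log2 difference of each member in each library from the mean of the control group of the same anesthetic, on log2 of CPM plus 0.5 (blue lower, red higher). Blue is deepest in Isoflurane + sepsis libraries 3 and 4, whose medians are -0.56 and -0.596, and in Propofol + sepsis library 10 within its group, at -0.421.

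Whether the response to sepsis differed between the anesthetics was examined with an interaction term fitted to the 16 libraries, the isoflurane log2 fold change minus that under propofol. edgeR called 0 of 33 members, where 1.06% of all genes were lower and 1.66% higher. At an unadjusted p below 0.05 there were 11 members, 9 of them with the more negative change under isoflurane and 2, Bcs1l and Sco1, under propofol, where 10.8% and 12.2% of all genes were. The smallest adjusted p was that of Cox15 (difference -0.57, 95% confidence interval -0.93 to -0.22, adjusted p = 0.0705), followed by Tmem126a (difference -0.61, 95% confidence interval -0.99 to -0.22, adjusted p = 0.0749). DESeq2 called 3 members, Tmem126a (adjusted p = 0.0282), Cox15 (0.0423) and Acad9 (0.0477), all lower, and it called 3.29% of all genes lower. Over the alternatives the adjusted p ranged from 0.00847 to 0.141 for Tmem126a, from 0.0242 to 0.134 for Cox15 and from 0.0135 to 0.162 for Acad9. Without library 1, edgeR called 5 members (Acad9, Cox15, Cox19, Timmdc1 and Tmem126a) and 7% of all genes lower, and without library 10 it called Cox15, Tmem126a and 1.45% of all genes lower.

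Compared to the Propofol control group, 6 members (18.2%) were lower in the Isoflurane control group and 2 (6.06%) higher, against 13.3% and 13% of all genes, so the share called was near that of all genes. Bcs1l differed most, at 12 to 13.6 CPM in the Isoflurane control group and 21.1 to 27.9 CPM in the Propofol control group (log2 fold change -0.9, SE 0.151, adjusted p = 6.5e-04). Ndufaf4 was at 30 to 33.2 CPM against 40.5 to 58.7 CPM (-0.63, adjusted p = 0.00128) and Sco1 at 6.96 to 8.52 CPM against 9.33 to 10.8 CPM (-0.36, adjusted p = 0.00664), and the calls of these 3 held with any library left out. Coa4 (-0.49), Ndufaf7 (-0.34) and Atpaf2 (-0.27) were lower as well, with adjusted p of 0.0191, 0.0362 and 0.0276, and lost the call in 3, 6 and 4 of the 16 fits with a library left out. Coa3 and Coa5, named after their values were seen, were higher by 0.31 and 0.18 on the log2 scale (adjusted p = 0.0362 and 0.0434), and lost the call in 7 and 8 of those fits. Between the same groups 5 of 8 hepatocyte markers were higher and 1 lower in the Isoflurane control group, and 3 of 8 neutrophil and monocyte markers were lower, and their part was not tested.

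These comparisons between anesthetics depend on scaling. Scaling by library totals alone moved the median of all genes from -0.002 to -0.147 on the log2 scale between the controls and from -0.013 to -0.161 between the sepsis groups. With totals, 13 members were lower and 0 higher between the controls, where 26.5% of all genes were lower, Coa3 and Coa5 had log2 differences of 0.17 and 0.04 that did not pass the test, and the other 6 were lower as before. Between the sepsis groups, 16 members (48.5%) were lower and 1 (3.03%) higher (Cox17, 0.24, adjusted p = 0.031) in the Isoflurane + sepsis group, against 19% and 19.6% of all genes. With totals 26 were lower and 0 higher, where 32.6% of all genes were lower. Cox15 lay at 3.5 to 4.69 CPM in the Isoflurane + sepsis libraries and 6.01 to 8.18 CPM in the Propofol + sepsis libraries (log2 fold change -0.79, adjusted p = 3.64e-04). Coa4 lay at 2.95 to 5.14 CPM against 5.86 to 8.39 CPM (-0.81, adjusted p = 0.00117), and Ndufaf7 at 4.45 to 6.98 CPM against 8.84 to 9.88 CPM (-0.67, adjusted p = 6.81e-04). These 3 did not overlap between the sepsis groups, whereas Lyrm7, with the lowest log2 fold change there (-1.39, adjusted p = 0.00541), overlapped by 1 library of each group. Coa4 and Ndufaf7 were also lower in the Isoflurane control group, as given above.

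The nuclear subunits of the same complexes, which are not members, give the setting. Of 80 subunit genes listed, 70 were tested. Under isoflurane 36 (51.4%) were lower with sepsis, against 24.4% of all genes, and the median log2 fold change was -0.27. Under propofol 5 (7.14%) were lower and 1 higher, against 21.7% and 20.4% of all genes, with a median of -0.05. Beside them, 15 of 33 assembly factors (45.5%) were lower. With library totals 15 subunits, 19 assembly factors and 26.1% of all genes were lower under propofol. For complex IV, 0 of 10 subunits were lower in either anesthetic by edgeR or DESeq2, with 0 at an unadjusted p below 0.05. Of the 13 complex IV assembly factors, edgeR called 7 (53.8%) lower under isoflurane and 3 (23.1%) under propofol. The share under propofol was near the 21.7% of all genes. For complex I the subunits gave 21 of 33 under isoflurane and 5 of 33 under propofol. The difference between assembly factors and subunits was not tested.

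**Figure D4:**
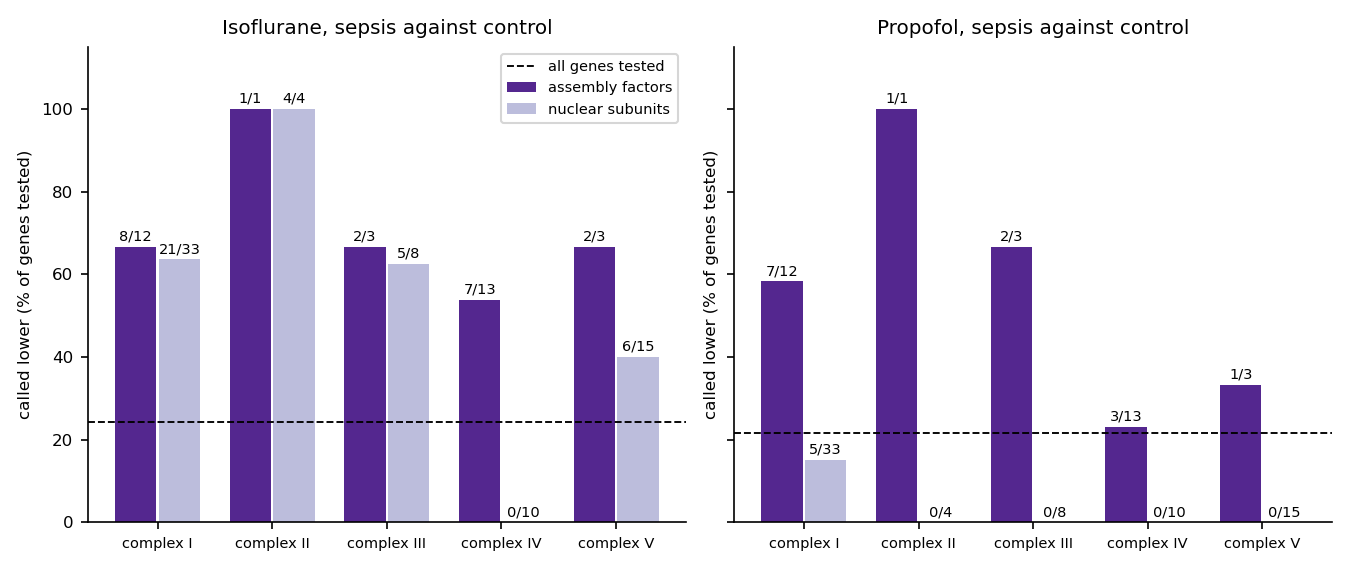
Share of tested genes called lower with sepsis (edgeR, adjusted p below 0.05) for assembly factors and nuclear subunits of each complex, with the counts above the bars and the share of all genes tested as a dashed line (24.4% for isoflurane, 21.7% for propofol). Complex II has 1 assembly factor tested. Under propofol no bar for subunits reaches the dashed line.

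Between the control groups the subunits that were called were all higher in the Isoflurane control group. By edgeR 47 of 70 subunits were higher there than in the Propofol control group and 0 lower, against 13% and 13.3% of all genes. DESeq2 gave 50 and 0, and at an unadjusted p below 0.05 there were 54 and 0. The median of the subunits was 0.28. With library totals 17 subunits were higher and 0 lower, with a median of 0.14. The assembly factors had a median of -0.11 with TMM and -0.26 with totals. Of these factors 6 were called lower and 2 higher, a share near that of all genes, so no direction is read from their calls.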

How the data were processed

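Poly(A) RNA of rat liver was sequenced with a strand-keeping protocol from 1 end. For each of 16 libraries the authors deposited raw counts, whole numbers of reads per gene symbol without normalization. The submitters' processing notes name STAR and the genome build rn5 and give no versions. The counting program, the annotation and whether strand was used in counting are not named in any source used here, so reads of overlapping or antisense genes cannot be told apart. Reads listed as no_feature (21.6% to 25.4%) and ambiguous reads were left out. Counts of pairs of libraries of a group differed by a chi-square per degree of freedom of 3.35 to 96.3, so no library was counted as a repeat.

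Within each anesthetic, the sepsis group was set against its control group by the quasi-likelihood test of edgeR 4.0.16 (R 4.3.3) on 4 against 4 libraries with TMM scaling and filterByExpr (minimum count 10, minimum total count 15). P-values were adjusted by Benjamini-Hochberg over 10361 (isoflurane) or 10348 (propofol) genes. The interaction and the comparisons between anesthetics used all 16 libraries (10621 genes). The script was tested on simulated data. CPM values use TMM factors from all 16 libraries (0.92 to 1.09), and means and SD are over 4 libraries. CPM is not divided by length, so levels are not compared between genes. Intervals from a count of 0 cover counting error only.

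The members, the gene lists and the tests were chosen with earlier results of these data known. Named with values in each library were, in each complex and anesthetic, the member with the smallest adjusted p, each member called with sepsis at a log2 fold change of at least 0.5 in size, the 2 members with the smallest interaction p, and the 6 with the smallest p between controls. The plan also named each member called higher. Coa3 and Coa5, higher between the controls, and Cox17, higher between the sepsis groups, are nevertheless given without values in each library. Alternatives were RLE size factors, library totals, DESeq2 1.42.0, dropping the minimum count, requiring a mean of 1 CPM, an adjusted p below 0.01, all 16 libraries in 1 fit, and each library left out. Promoter windows are those of RefSeq (GRCr8), scanned with Python 3.11.15. A planned comparison of protein sequences was not run.

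Besides the markers given above, lists of Kupffer cell and macrophage, lymphocyte, endothelial, stellate and cholangiocyte markers were summed. With sepsis, edgeR called 4 of 8 Kupffer cell markers higher and 1 lower under isoflurane, and 1 higher and 1 lower under propofol. It called 3 of 6 endothelial markers lower under isoflurane (summed level 143 to 179 CPM against 188 to 235 CPM), and 1 higher and 2 lower under propofol (204 to 224 CPM against 254 to 271 CPM). Stellate markers gave 3 of 6 higher and 1 lower, and 1 higher and 3 lower. Of the lymphocyte list 1 gene was tested, and it was higher under isoflurane. Cholangiocyte markers gave 1 of 2 higher under isoflurane. Hepatocyte markers gave 3 of 8 lower under isoflurane and 2 of 8 under propofol, and neutrophil and monocyte markers 7 of 7 and 7 of 8 higher. The part of these markers in the results was not tested.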

Additional observations from a re-analysis of the deposited data

Results flagged for a closer look

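In 6 of the 132 sets of 4 libraries (33 members in 4 groups), 1 library stood apart from the other 3 by Dixon's criterion (95% level), and chance flags about 5% of such sets. In each of the 6 it was the lowest library.

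Library 10 of the Propofol + sepsis group was the one that stood apart for 3 members. Acad9 was at 22.5 CPM there and at 28.4 to 29.3 CPM in the other 3 libraries. Tmem70 was at 25.8 CPM against 34 to 34.2 CPM, and Atpaf1 at 16.9 CPM against 20.9 to 21.4 CPM. Without library 10, 13 members were lower with sepsis under propofol, against 15 with it.

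In the control groups, Tmem126b was at 5.45 CPM in Isoflurane control library 5 and at 6.68 to 6.78 CPM in the others. Coa4 was at 9.65 CPM in Propofol control library 13, against 11.9 to 12.3 CPM. Cox15 was at 9.9 CPM in Propofol control library 14, against 10.9 to 11 CPM.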

How the results depend on the processing

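The counts of members lower with sepsis stayed within 1.5 times the reported 20 (isoflurane) and 15 (propofol) under every alternative run except an adjusted p below 0.01, which left 9 under propofol. Dropping the minimum count left 11 under propofol, where Ndufaf1, Ecsit, Sdhaf2 and Oxa1l lost the call. The threshold of 0.01 also left 3 members between the controls and 11 between the sepsis groups. The shares of all genes at that threshold and without the minimum count are not given here, so these counts are not set against all genes. Scaling by library totals gave 13 between the controls and 26 between the sepsis groups, and DESeq2 called 3 members for the interaction. With each library left out in turn, members lower ranged from 18 to 22 under isoflurane and from 10 to 13 under propofol, members higher from 0 to 1 in each, the interaction from 0 to 5, the controls from 3 to 10 and the sepsis groups from 13 to 20. Apart from those given above for the interaction, the shares of all genes in these fits are not given here. The count between the controls was 3 without library 6, 4 without library 16 and 5 without library 5, 7, 8, 14 or 15. The medians ranged from -0.48 to -0.39 and from -0.27 to -0.18. The cause of these changes was not tested. Of the values of named members recomputed under alternatives, 1060 kept their side of the threshold, 37 lost the call, 30 gained it and 0 reversed. No paired analysis was possible, because the 48 rats were divided among the groups and the labels name no pairs. Pools of 3 rats, 4 to a group, limit the precision, and low members such as Lyrm7 and Taco1 carry the widest intervals.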
